A study of Drosophila melanogaster with 6 samples.

Results

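The regions described here are peaks of Suppressor of Hairless (Su(H)) binding that were found reproducibly in medulla neuroblasts of the *Drosophila* optic lobe and that share no base with a reproducible peak of the transcription factor Eyeless (Ey). There are 361 of them among 972 reproducible Su(H) peaks (37.1%), and they are called Su(H)-only peaks. The other 611 Su(H) peaks overlap at least 1 of the 984 reproducible Ey peaks and are called shared peaks, and 384 reproducible Ey peaks without a reproducible Su(H) peak are called Ey-only peaks. The Su(H)-only peaks were chosen by the measured peak positions of both factors, so their Su(H) and Ey scores are given below as a description, with no test. The name holds for the reproducible lists and not for every list. Of the 361 peaks, 216 overlapped no Ey peak in either Ey-Dam replicate at a false discovery rate (FDR) under 0.01, 29 overlapped one in replicate 1 alone, 52 in replicate 2 alone and 64 in both. The number also rests on the reproducible Su(H) list: with the FDR 0.01 list of Su(H)-Dam replicate 2 or replicate 1 alone in its place, 715 and 679 Su(H) peaks had no reproducible Ey peak.

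The data are DamID-seq profiles, in which a DNA-binding protein is fused to the bacterial enzyme Dam and leaves methylated GATC sequences where it sits on the genome. Climbing larvae of the last instar carried *UAS-Dcr2*, *tubG80ts* over the *CyO* balancer and *SoxN-Gal4* together with *UAS-Dam*, *UAS-Ey-Dam* or *UAS-Su(H)-Dam*, and all groups were reared alike. Crosses stood at 25 C, eggs from a window of 8 h were held at 18 C for 3 days, and the larvae were then moved to 29 C for 72 h to induce the transgene. Each of the 6 libraries, 2 per group, pooled the optic lobes of around 100 brains, so a replicate is a pool of animals and binding is averaged over every cell in which *SoxN-Gal4* is active. The labels call these cells medulla neuroblasts, which peaks cannot check, since a gene can be bound without being expressed. Peaks were called on the ratio of a fusion over Dam alone, and since the methods do not say which control library went with which fusion, both fusions may share their Dam-only controls. Peak borders are GATC sites, and no Su(H)-only peak was made of a single GATC fragment, so a position is known to a few fragments (a median of 4 per peak) and not to a site.

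Su(H) is the DNA-binding protein of the Notch pathway. When a ligand such as Delta activates the Notch receptor, the intracellular part of the receptor is released, enters the nucleus and forms an activating complex with Su(H) and Mastermind on DNA. Without Notch activity, Su(H) can instead hold the corepressor Hairless at the same sites. In neuroblasts, the stem cells of the fly brain, the best known targets of this complex are the bHLH repressor genes of the E(spl) complex. Ey, the fly Pax6 protein, is one of the temporal transcription factors that medulla neuroblasts express one after another as they age.

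The sequence that Su(H) recognises was not used to choose the peaks, so it is shown first. Its high-affinity consensus reads TGTGGGAA, CGTGGGAA, TGTGAGAA or CGTGAGAA on either strand. The sequences below are dm6 reference sequence from RefSeq, read 5′ to 3′ on the plus strand, with consensus sites in capitals. A site on the minus strand therefore appears as TTCCCACA, TTCCCACG, TTCTCACA or TTCTCACG, depending on the variant. The windows hold up to 300 bases and come from Su(H)-only peaks with 3 to 5 sites, except that at *E(spl)mdelta-HLH*, whose peak has 2 sites and is shown for their arrangement. The first 2 windows hold a pair of sites that face each other, the arrangement known from E(spl) genes, on which a pair of Notch complexes can assemble.
E(spl)m4-BFM, chr3R:26024635-26024910: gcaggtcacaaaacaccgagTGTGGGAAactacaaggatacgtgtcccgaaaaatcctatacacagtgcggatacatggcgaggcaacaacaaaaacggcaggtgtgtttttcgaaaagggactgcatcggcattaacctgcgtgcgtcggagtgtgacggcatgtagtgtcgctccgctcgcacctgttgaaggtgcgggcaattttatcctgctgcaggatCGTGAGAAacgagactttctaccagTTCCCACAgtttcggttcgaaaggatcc
E(spl)mdelta-HLH, chr3R:25996262-25996332: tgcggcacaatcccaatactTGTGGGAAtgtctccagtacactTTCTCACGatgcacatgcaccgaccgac
E(spl)malpha-BFM, chr3R:26010111-26010295: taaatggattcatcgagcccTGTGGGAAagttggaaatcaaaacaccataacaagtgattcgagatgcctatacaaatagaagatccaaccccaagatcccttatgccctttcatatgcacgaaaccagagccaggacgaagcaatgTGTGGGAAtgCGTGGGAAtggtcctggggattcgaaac
E(spl)m5-HLH, chr3R:26029854-26030064: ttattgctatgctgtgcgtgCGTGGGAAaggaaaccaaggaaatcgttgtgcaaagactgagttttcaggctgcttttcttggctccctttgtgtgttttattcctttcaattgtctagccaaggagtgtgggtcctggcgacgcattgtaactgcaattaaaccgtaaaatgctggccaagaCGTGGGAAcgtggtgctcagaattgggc
Ocho and Brd, chr3L:14974477-14974760: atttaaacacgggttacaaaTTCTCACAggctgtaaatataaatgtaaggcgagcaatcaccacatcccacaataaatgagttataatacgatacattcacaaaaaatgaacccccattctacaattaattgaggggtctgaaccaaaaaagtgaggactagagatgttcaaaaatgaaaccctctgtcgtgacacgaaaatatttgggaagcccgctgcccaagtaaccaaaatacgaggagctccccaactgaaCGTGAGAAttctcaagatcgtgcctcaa
sim, chr3R:13070191-13070395: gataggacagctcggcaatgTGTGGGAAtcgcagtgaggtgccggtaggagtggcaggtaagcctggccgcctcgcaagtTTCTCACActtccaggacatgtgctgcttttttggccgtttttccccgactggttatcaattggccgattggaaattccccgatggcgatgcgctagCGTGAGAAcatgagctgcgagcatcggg
lncRNA:CR43258 beside Delta, chr3R:19329881-19330093: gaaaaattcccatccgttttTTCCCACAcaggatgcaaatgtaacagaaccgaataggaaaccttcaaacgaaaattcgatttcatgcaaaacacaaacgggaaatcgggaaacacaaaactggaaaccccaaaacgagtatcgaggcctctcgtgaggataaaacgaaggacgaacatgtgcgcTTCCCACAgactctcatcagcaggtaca
pnt, chr3R:23319833-23319914: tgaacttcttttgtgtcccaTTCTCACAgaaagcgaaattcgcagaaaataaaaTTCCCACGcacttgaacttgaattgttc
Of these windows, that at *E(spl)mdelta-HLH* lies in an exon of the neighbouring gene *CG43116*, that beside *Delta* in an exon of a long noncoding RNA, those at *sim* and *pnt* in introns and the other 4 between genes. None of them overlaps an annotated UTR. In the *E(spl)m4-BFM* window the last 2 sites face each other across 17 bp, and in the *E(spl)mdelta-HLH* window the 2 sites do so across 15 bp. The *E(spl)malpha-BFM* window ends in 2 sites on the same strand, 2 bp apart.

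Single sites are shown for genes of pathways that the study discusses for Su(H) peaks without Ey, BMP and p38 signaling, and for the Notch ligand *Delta*. Here each window is written on the strand of its site.
p38c, chr3R:24149136-24149183, plus strand: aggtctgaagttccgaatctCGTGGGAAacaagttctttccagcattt
put, chr3R:14617639-14617686, minus strand: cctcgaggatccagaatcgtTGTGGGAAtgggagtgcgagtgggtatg
Dad, chr3R:17051805-17051852, plus strand: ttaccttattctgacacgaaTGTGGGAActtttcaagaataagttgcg
Dad, chr3R:17052095-17052142, minus strand: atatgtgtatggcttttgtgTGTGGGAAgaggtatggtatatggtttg
Delta, chr3R:19315296-19315343, plus strand: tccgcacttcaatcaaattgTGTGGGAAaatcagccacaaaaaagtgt
The first site lies in an exon of *p38c* and that near *put* in an exon of its neighbour *CG14853*, both outside UTRs, the *Dad* sites between genes and the *Delta* site in an intron. All 5 windows carry the GGG form of the consensus.

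A larger share of Su(H)-only than of shared peaks held a consensus site, and the sites were denser there. A site was present in 142 of the 361 Su(H)-only peaks (39.3%, 95% Wilson interval 34.4 to 44.5%, which treats peaks as independent) and in 171 of the 611 shared peaks (28.0%, 24.6 to 31.7%), although shared peaks were longer, with a median of 1822 bp against 1216 bp. The sites numbered 190 in Su(H)-only and 238 in shared peaks. Per length of DNA the density was 0.396 sites per kb in Su(H)-only peaks, 0.181 in shared peaks, 0.0881 in Ey-only peaks and 0.106 over the 6 chromosome arms. Among tiles of 1216 bp over the arms, the median length of Su(H)-only peaks, 11.9% held a site. The same 8 letters in reversed order, a control of equal base composition, were in 47 of the 361 Su(H)-only peaks and 107 of the 611 shared peaks, and such matches numbered 48 against the 190 sites of the consensus in Su(H)-only peaks. Median GC content was 42.9% in Su(H)-only and 42.7% in shared peaks. With the FDR 0.01 list of Su(H)-Dam replicate 2 in place of the reproducible list the share was 27.6% without and 24.7% with Ey (0.274 and 0.173 sites per kb), and with that of replicate 1 it was 28.9 and 23.8% (0.272 and 0.171 per kb), so the gap in the share narrowed with these longer lists. No test of these shares is given, since neighbouring peaks and sites are not independent.

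Among the Su(H)-only peaks themselves, the density was lower where more Ey-Dam replicates had a peak. The 216 peaks without an Ey peak in either replicate held 0.467 sites per kb and 42.1% of them had a site. The 81 peaks with an Ey peak in a single replicate held 0.328 per kb (37.0% with a site), and the 64 with an Ey peak in both replicates held 0.292 per kb (32.8%). The Wilson intervals of these 3 shares overlap (35.7 to 48.8%, 27.3 to 47.9% and 22.6 to 45.0%).

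**Figure D1:**
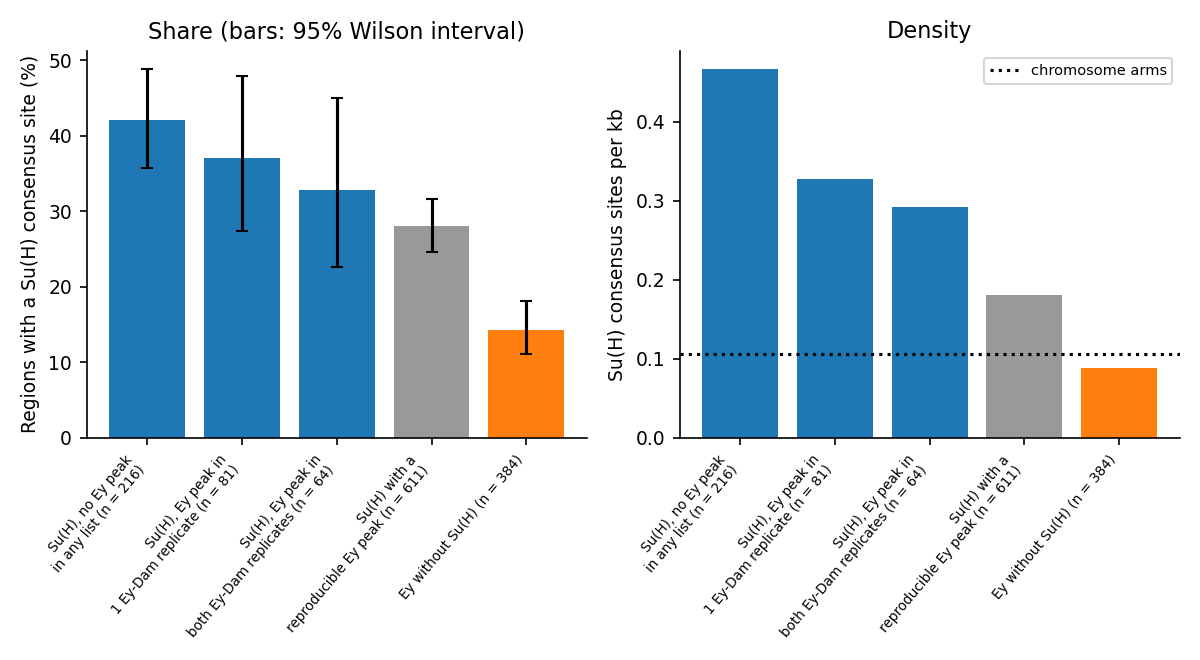
Left, the share of regions in percent that hold at least 1 Su(H) consensus site, with 95% Wilson intervals; right, the number of sites per kb, with the level of the chromosome arms (0.106) as a dotted line. The 3 blue bars are Su(H)-only peaks by the number of Ey-Dam replicates with a peak there, and their density of 0.467, 0.328 and 0.292 sites per kb lies above the 0.181 of shared peaks (grey) and the 0.0881 of Ey-only peaks (orange).

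The density of sites was highest in the middle of the peaks, although many sites lay further out. Of the 142 Su(H)-only peaks with a site, 72 (50.7%) had one in the 500 bp around the centre. Over all peaks, in the 500 bp around the centre, 21.1% of Su(H)-only peaks had a consensus site (17.2 to 25.6%), against 9.98% of shared peaks (7.85 to 12.6%), 5.21% of Ey-only peaks and 5.06% of all 500 bp tiles over the arms. The 250 bp bins on both sides of the centre of Su(H)-only peaks held 0.543 and 0.510 sites per kb. The same bins of shared peaks held 0.223 and 0.216. At 2750 to 3000 bp from the centre the values of Su(H)-only peaks were 0.155 and 0.166.

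**Figure D2:**
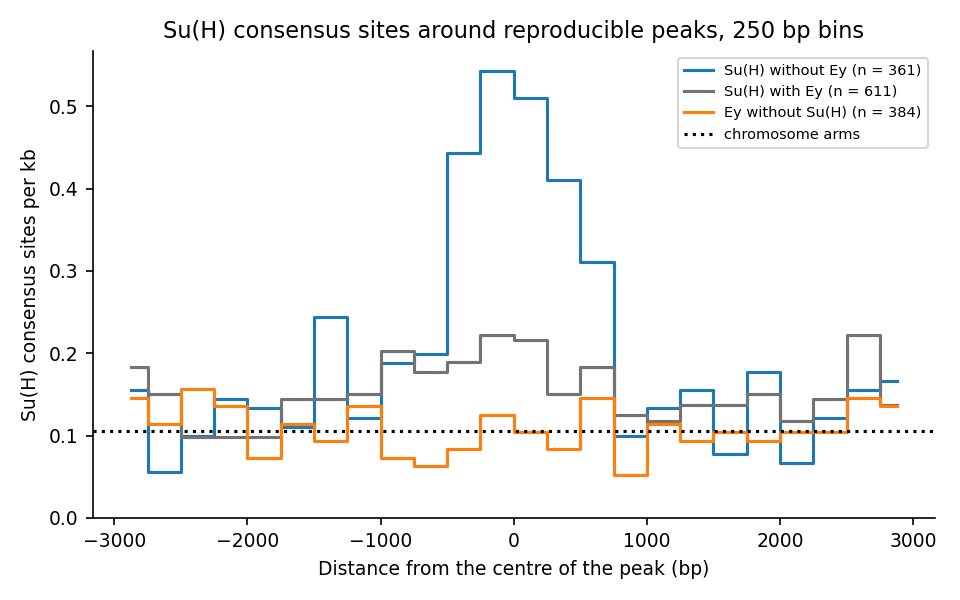
Su(H) consensus sites per kb in 250 bp bins against the distance from the peak centre in bp, for the 361 Su(H)-only, 611 shared and 384 Ey-only peaks, with the level of the chromosome arms (0.106) as a dotted line. Su(H)-only peaks rise to 0.543 beside the centre, shared peaks to 0.223, and Ey-only peaks stay around the level of the arms.

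The higher density was also seen within arms, length groups and score groups, but not within the E(spl) complex. There the 10 Su(H)-only peaks held 0.893 sites per kb and the 6 shared peaks 1.25, 12 sites in each. By chromosome arm, the density was higher in Su(H)-only than in shared peaks on 2L (0.304 and 0.180 per kb), 2R (0.386 and 0.227), 3L (0.463 and 0.183), 3R (0.519 and 0.196) and X (0.276 and 0.0973); chromosome 4 had a single Su(H)-only peak, with no site. With all Su(H) peaks split into 3 equal groups by length, the densities were 0.474, 0.389 and 0.331 per kb from the shortest to the longest Su(H)-only peaks and 0.221, 0.200 and 0.168 in shared peaks. With Su(H)-only peaks split into 3 groups by mean Su(H) score, they were 0.318, 0.422 and 0.468 from the lowest to the highest and 0.127, 0.143 and 0.229 in shared peaks of the same score ranges. Within a peak class the density thus rose with the score, but weakly (Spearman's rho of 0.105 over 243 Su(H)-only peaks, which share their libraries).

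All 4 variants of the consensus were denser in Su(H)-only than in shared peaks. TGTGGGAA occurred 70 times in Su(H)-only peaks, CGTGGGAA 58 times, TGTGAGAA 34 times and CGTGAGAA 28 times. The CGTGGGAA form stood furthest above the arms, with 0.121 per kb in Su(H)-only peaks, 0.0372 in shared peaks, 0.00839 in Ey-only peaks and 0.0207 over the arms. TGTGAGAA differed least, with 0.0709, 0.0455, 0.0378 and 0.0306 per kb.

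The choice of sequence pattern changes the picture. The core of 7 bases, GTGGGAA or GTGAGAA, was in 55.1% of Su(H)-only and 46.6% of shared peaks (0.640 and 0.343 per kb). The study's methods also use a degenerate consensus of 9 bases: G or T, then TT, C or T at each of the next positions, CA, A or C, and any base but T. The study also accepted sites with mismatches to it, while only exact matches were counted here. With these the share was lower in Su(H)-only than in shared peaks (67.3 and 76.1%). The density was nearly the same (0.955 and 0.886 per kb, 0.722 over the arms). The order of the shares was thus kept by the core and reversed by the 9-base pattern. That pattern is not a plain loosening of the consensus: 123 of the 142 Su(H)-only peaks with a consensus site held it. Shared peaks were also longer, and the density of the 9-base pattern was not lower in Su(H)-only peaks. Exact matches of a long Ey consensus were rare in each class. They were in 14 Su(H)-only peaks (3.88%) and 56 shared peaks (9.17%), or 0.0313 and 0.0440 per kb, with 0.0384 over the arms. The study also accepted Ey sites with mismatches, which these counts leave out, so they do not show how many peaks lack Ey sites.

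Pairs of sites that face each other were concentrated at the E(spl) complex. Pairs on opposite strands, 13 to 19 bp apart, occurred 12 times on the 6 arms, 10 of them facing each other and 2 facing away. Of the 12, 7 lay at the E(spl) complex, and 7 had a gap of exactly 17 bp. Su(H)-only peaks held 3 of the pairs, at *CG11191* on 2R, in the peak beside *E(spl)mdelta-HLH* and at *E(spl)m4-BFM*, shared peaks held 4, and Ey-only peaks none. The pair beside *E(spl)mdelta-HLH* lies in an exon of *CG43116*, with sites at -1.339 and -1.316 kb from the lower coordinate of *E(spl)mdelta-HLH*. The pair at *E(spl)m7-HLH* lay 467 bp outside the nearest Su(H)-only peak and in no Su(H) peak. All 7 pairs in Su(H) peaks face each other.

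Su(H) binding at Su(H)-only peaks was somewhat weaker and less often called in both replicates than at shared peaks. At FDR 0.01, 243 Su(H)-only peaks (67.3%) overlapped Su(H) peaks of both replicate lists, 53 a peak of 1 list and 65 no peak of either list; these 65 are in the reproducible list because it was built from peaks at an FDR under 0.1. Of the shared peaks, 544 (89.0%) had one in both. The find_peaks score, which rests on the log2 ratio of Su(H)-Dam over Dam alone, ran from 2.62 through a median of 3.40 to 5.59 in replicate 1 (263 Su(H)-only peaks) and from 2.21 through 3.23 to 5.28 in replicate 2 (276 peaks). The medians of shared peaks were 3.62 and 3.38, and those of all peaks in the replicate lists 3.22 and 2.96, so the ranges overlap almost fully. Spearman's rho between the replicate scores was 0.609 for the 243 Su(H)-only peaks and 0.681 for the 544 shared peaks. By Ey status, 116 of the 216 Su(H)-only peaks without any Ey peak (53.7%) had a Su(H) peak in both replicates, against 61 of the 64 with an Ey peak in both Ey-Dam replicates (95.3%).

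**Figure D3:**
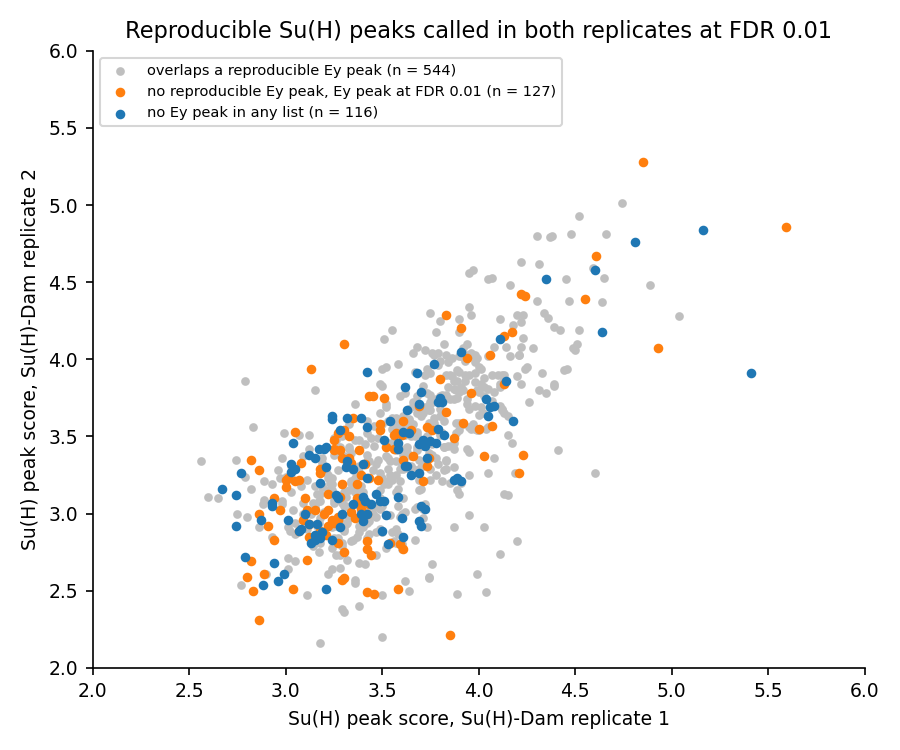
Su(H) peak score in Su(H)-Dam replicate 2 against replicate 1 for reproducible Su(H) peaks called at FDR 0.01 in both replicates. Shared peaks are grey (n = 544), Su(H)-only peaks with an Ey peak in at least 1 Ey-Dam replicate orange (n = 127) and those without any Ey peak blue (n = 116), and the 3 clouds overlap over most of their range. The highest points are Su(H)-only peaks, at 5.59 in replicate 1 and 5.28 in replicate 2.

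In both replicates the highest score over all reproducible Su(H) peaks was that of a Su(H)-only peak. The peak over the start sites of *Asph* and *Ric* (chr2R:16109720-16111816) had Su(H) scores of 5.59 in replicate 1 and 4.86 in replicate 2, with 1 consensus site and an Ey peak in Ey-Dam replicate 2 alone, at 3.08. *Asph* encodes an aspartyl beta-hydroxylase and *Ric* a small GTPase of the Ras family. The peak at *Bro* and *CG13920* (chr3L:1649407-1650347) scored 4.85 and 5.28. *Bro* encodes the beta partner of Runx proteins, which raises their affinity for DNA. The peak at *epsilonCOP*, a coatomer subunit gene, and *Phf5a* (chr2L:6490030-6491787) scored 5.16 and 4.84 with no Ey peak and no consensus site. A short peak of 356 bp in an intron of the zinc finger gene *Cph* (chrX:7169816-7170171) scored 4.81 and 4.76 and held 2 sites. At *lncRNA:CR43862* on X the replicates were further apart, at 5.41 and 3.91. The others among the 10 highest were at *CG12496* (4.60 and 4.58), *grh* (4.93 and 4.07), *CG14506* (4.55 and 4.39) and at 2 places within 1000 bp of no gene, chr3R:29286232-29287154 (4.61 and 4.67) and chr3R:18233769-18234676 (4.35 and 4.52). Of the 10, 5 held a consensus site and 5 had an Ey peak in at least 1 replicate, though at chr3R:29286232-29287154 that overlap was 1 base long.

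The peaks with the most consensus sites had ordinary scores. The peak with 5 sites, the most, lies in an intron of *sim*, the bHLH-PAS gene of the midline (chr3R:13069001-13071438). It scored 3.32 and 3.34 and overlapped no Ey peak, but an Ey peak of a replicate list touched it. The peak of *Ocho* and *Brd* (chr3L:14973710-14976181), small Bearded family genes that inhibit Neuralized, held 4 sites and scored 3.74 and 3.36. The peak at *lncRNA:CR43258* beside *Delta* (chr3R:19329850-19331125) held 4 sites and scored 3.62 and 3.31, with no Ey peak. *E(spl)m5-HLH* (chr3R:26029255-26031333) had 4 sites and 3.17 and 3.42. Peaks with 3 sites were at *E(spl)malpha-BFM* (4.13 and 4.15), *pnt* (3.34 and 3.01), *E(spl)m4-BFM* (3.01 and 3.23), *lncRNA:CR46220* (2.99 and 2.61) and *CG11191*, whose peak had no Su(H) call at FDR 0.01. In all, 34 Su(H)-only peaks (9.42%) held at least 2 sites, against 43 shared peaks (7.04%).

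Where Ey peaks at FDR 0.01 did overlap Su(H)-only peaks, they were low. In Ey-Dam replicate 1, 93 Su(H)-only peaks had an Ey peak, with a median score of 4.52 (3.66 to 5.96), against 5.67 at shared peaks and 5.14 over all peaks of that list. In Ey-Dam replicate 2 the median was 3.97 over 116 peaks (3.05 to 5.25), against 5.05 and 4.42. Only 17 and 23 of these lay above the median of their list. The overlap itself was wide: a median of 93.2% of the Su(H)-only peak was covered in replicate 1 and 94.5% in replicate 2, and a single one of these overlaps was 1 base long. The 5 with the highest mean Ey score among those found in both replicates were at *Kdm5* (Ey scores of 5.16 and 4.02), *aop* (4.70 and 4.45), *kay* (4.73 and 4.42), *Drgx* (5.45 and 3.69) and *CG6118* (5.18 and 3.96).

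**Figure D4:**
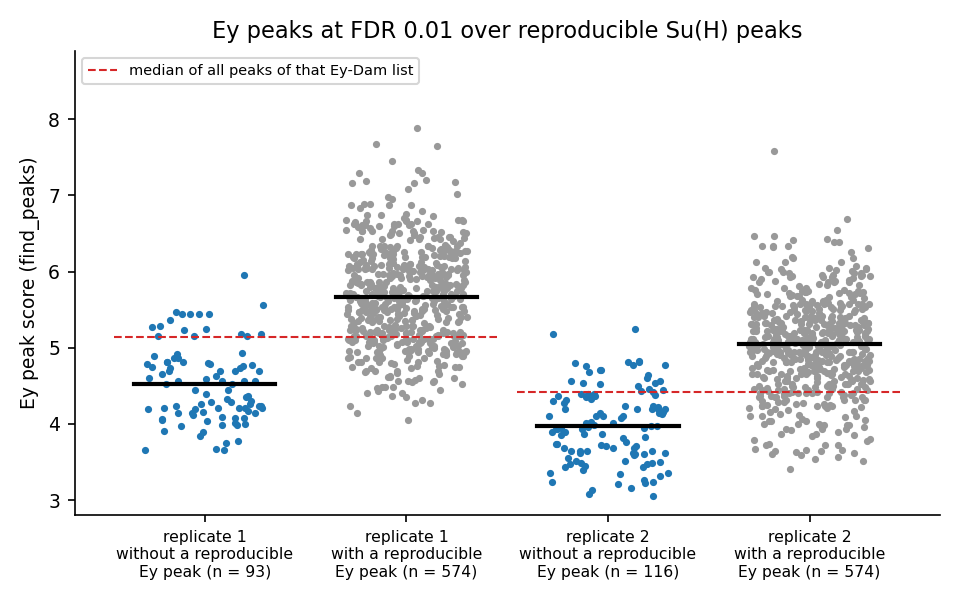
Ey peak scores at FDR 0.01 over reproducible Su(H) peaks in Ey-Dam replicates 1 and 2, for Su(H)-only peaks (blue, n = 93 and 116) and shared peaks (grey, n = 574 in each); black lines are medians and red dashed lines the median of all peaks of that Ey-Dam list (5.14 and 4.42). Su(H)-only peaks lie mostly under the red lines and shared peaks mostly above them.

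Most Su(H)-only peaks were far from a reproducible Ey peak. The distance to the nearest one had a median of 18332 bp, and 229 peaks (63.4%) were over 10000 bp away; 29 (8.03%) were within 1000 bp. At the edge of the rule, 3 Su(H)-only peaks touched a reproducible Ey peak without sharing a base. They lie at *Cph* (chrX:7166084-7169021, 3.64 in replicate 1 and no peak in replicate 2), at *lncRNA:CR45250* (chr3L:11341038-11342901, 3.22 and 3.02) and away from genes at chr3R:30763541-30763958 (3.78 and 3.46). On the other side of the rule, the shortest overlaps were 325, 338 and 351 bp, and each of these 3 short Su(H) peaks was covered in full. Of the 611 shared peaks, 491 (80.4%) lay fully inside Ey peaks and 15 were covered to less than 50%. By position, few shared peaks were thus close to the limit of the rule. The rule also rests on which Ey peaks were reproducible. Of the 361 Su(H)-only peaks, 145 overlapped an Ey peak of at least 1 replicate list, 64 of them in both lists.

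Su(H)-only peaks were spread over all arms, and made up the largest share of Su(H) peaks on X. There were 87 on X, which is 50.6% of the reproducible Su(H) peaks there, 90 on 3R (38.3%), 63 on 2R, 72 on 3L (31.6%), 48 on 2L (29.4%) and 1 on chromosome 4. A transcription start site lay in 113 of them (31.3%), another exon in 86, an intron in 81, and 81 lay between genes. Of the shared peaks, 28.5% held a start site, 13.3% another exon, 27.5% were in introns and 30.8% between genes. In Su(H)-only peaks the density of consensus sites was 0.346 per kb at start sites, 0.356 in other exons, 0.427 in introns and 0.495 between genes, each above the 0.187, 0.160, 0.137 and 0.218 of shared peaks at the same kind of place.

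Within 1000 bp of a Su(H)-only peak lay 479 of 18164 annotated genes (2.64%), 399 of them protein coding. With the FDR 0.01 list of Su(H)-Dam replicate 2 or replicate 1 alone in place of the reproducible Su(H) list, 923 and 835 genes did. Of these 479 genes, 98 also had a reproducible Ey peak within 1000 bp, and 74 a shared peak. Genes with a Su(H)-only peak were longer than others, with a median of 4239 bp against 1656 bp over all genes, and a longer gene has more room for a peak. The gene lists below were drafted after the study's own lists of bound genes from these samples had been seen, so a high share in a list is not independent evidence for it. The counts of the lists are a description beside the 2.64% of all genes, with no test.

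The E(spl) and Bearded families, the classical Notch targets, had the largest share of the lists: 10 of 15 annotated genes (66.7%) had one within 1000 bp. Over the E(spl) complex on 3R, from *Nf1* to *groucho*, there were 16 reproducible Su(H) peaks, of which 10 were Su(H)-only and 6 shared, next to 5 reproducible Ey peaks. The highest Su(H)-only peak of the complex was upstream of *E(spl)malpha-BFM* (chr3R:26008742-26010387), at 4.13 and 4.15 in the Su(H)-Dam replicates and 4.92 and 4.10 in the Ey-Dam replicates. This gene encodes a Bearded family protein, which blocks Neuralized. A peak next to *E(spl)m5-HLH* (chr3R:26027162-26028674) scored 4.07 and 3.57, with Ey peaks of 4.29 and 4.60. The peak that covers *E(spl)mdelta-HLH* (chr3R:25997529-25999132) scored 3.73 and 3.56 and was 59 bp from a reproducible Ey peak. That Ey peak lies under the shared peak of *E(spl)mgamma-HLH*, an Su(H) target that neuroblasts express, whose Ey scores were 6.30 and 5.65 and whose Su(H) scores were 3.93 and 3.9. The peak with the facing pair in front of *E(spl)mdelta-HLH* (chr3R:25995979-25997503) was called for Su(H) in replicate 2 alone, at 3.10, and had no Ey peak. The peak of *E(spl)m4-BFM* with the other pair (chr3R:26024478-26025333) scored 3.01 and 3.23, and 3.34 for Ey in replicate 2 alone.

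Consensus sites in the complex were gathered in a few of its peaks. Of the 10 Su(H)-only peaks 4 held a site, 12 sites in all, and of the 6 shared peaks 5 did, also with 12 sites. Most Su(H)-only peaks without a site, as at *E(spl)m3-HLH* (chr3R:26022777-26024402, 3.61 and 3.60), *E(spl)m7-HLH* (3.05 and 3.53) and *E(spl)m2-BFM* (3.42 in replicate 2 alone), lie over the genes themselves. The peak without a site next to *E(spl)m5-HLH* (4.07 and 3.57) lies between genes, 179 bp downstream of that gene. The next peak after that at *E(spl)m3-HLH* is the *E(spl)m4-BFM* peak with its 3 sites.

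**Figure D5:**
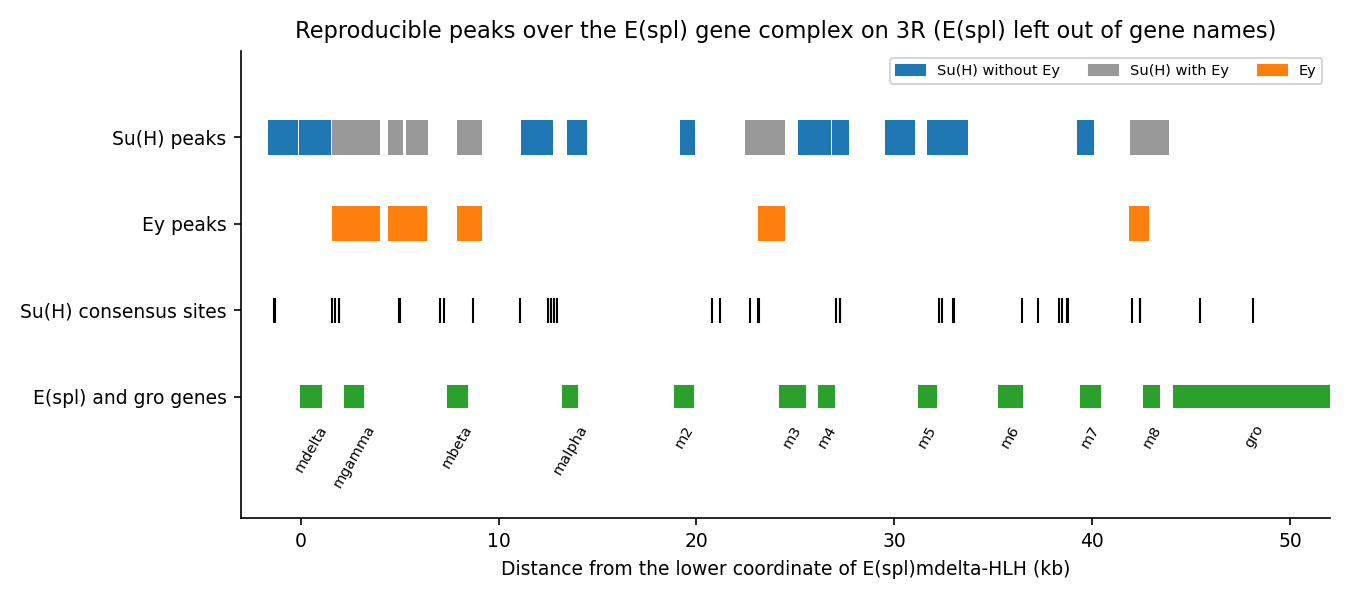
Map of the E(spl) complex on 3R in kb from the lower coordinate of *E(spl)mdelta-HLH*. Rows from the top are reproducible Su(H) peaks (10 Su(H)-only in blue, 6 shared in grey), the 5 reproducible Ey peaks (orange), Su(H) consensus sites (ticks) and the E(spl) and *groucho* genes (green); reproducible Ey peaks lie beside *mgamma*, *mbeta*, *m3* and *m8*, and none lies at *malpha*, *m2*, *m4*, *m5*, *m6* or *m7*.

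Other genes of the Notch pathway had Su(H)-only peaks next to shared ones. Of 27 annotated genes for the receptor, ligands and modulators, 3 (11.1%) had a Su(H)-only peak, and all 3 also had a reproducible Ey peak. *Delta*, the ligand gene, had a Su(H)-only peak in an intron (chr3R:19313680-19315866) at 3.94 and 4.01 for Su(H) and 4.17 and 3.95 for Ey, with 1 site. A weaker one in the gene (chr3R:19307143-19307853) had no peak at FDR 0.01 in any replicate. Together with the 4-site peak at *lncRNA:CR43258*, the *Delta* locus held 3 Su(H)-only and 2 shared peaks. *neur*, whose ubiquitin ligase activates Delta, had a peak at 3.31 and 3.30 with no Ey peak (chr3R:9036879-9038904). *bib*, which encodes an aquaporin-like membrane protein, scored 3.22 and 2.92.

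In EGFR and Ras signaling 15 of 35 genes (42.9%) had a Su(H)-only peak, 13 of them without a reproducible Ey peak. *aop*, the ETS repressor Yan, had 2 such peaks, the higher (chr2L:2163333-2165130) at 3.80 and 3.87 for Su(H) and 4.33 for Ey in replicate 2 alone. *pnt*, the opposing ETS activator, had the 3-site peak (chr3R:23319724-23320799) at 3.34 and 3.01, with Ey at 4.26 and 4.01. *edl*, which encodes a regulator of both ETS proteins, scored 3.26 and 3.12 with no Ey peak. *sinah* and *phyl*, genes of ubiquitin ligase complexes downstream of the receptor, also had peaks. That of *sinah* scored 4.64 and 4.18 and that of *phyl* 3.57 and 3.52. *rho-4*, a rhomboid protease gene, scored 3.91 and 4.20, and the phosphatase gene *Ptp10D* 3.56 and 3.42 with 2 sites.

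Among p38 and JNK kinases and their regulators, 6 of 19 genes (31.6%) had a Su(H)-only peak. *p38c* and *p38a*, neighbouring MAP kinase genes, shared a peak (chr3R:24148133-24149820) at 3.25 and 3.48 for Su(H) and 3.21 for Ey in replicate 2 alone. *Mekk1*, a kinase upstream of p38, had a peak in Su(H)-Dam replicate 2 alone at 3.08. *puc*, the JNK phosphatase gene, had one in replicate 1 alone at 3.42. *kay*, the Fos gene, scored 3.60 and 3.51 and *wnd*, a kinase of the JNK cascade, 3.10 and 3.00. In the BMP and activin list 2 of 23 genes (8.70%) had a Su(H)-only peak. *put*, a type II receptor gene, had its peak 809 bp downstream (chr3R:14616609-14618220), at 3.21 and 2.86 for Su(H) and 4.82 and 3.95 for Ey. *Dad*, the inhibitory Smad gene, had one 813 bp upstream (chr3R:17051785-17053193), at 3.18 and 2.89 for Su(H) and 4.82 for Ey in replicate 1 alone. Of these pathway genes, the peaks of *Mekk1*, *puc* and *wnd* had no Ey peak in any list.

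Genes of medulla neuron identity and of neuroblasts had Su(H)-only peaks of differing strength. Of 31 neuron identity genes 8 (25.8%) had one. The peak in *Dll*, a homeobox gene of neurons and appendages (chr2R:24833297-24834137), was in the reproducible list with an IDR score of 684 and 1 consensus site, but neither Su(H)-Dam replicate had a peak there at FDR 0.01, and no Ey peak overlapped it. *zfh2* scored 4.0 and 3.55, with Ey at 5.18 in replicate 2 alone, *unpg* 3.37 and 3.19, *PHDP* 3.19 and 3.29, and *ap* 3.31 in replicate 1 alone; these are homeobox genes as well. *tup* had none at FDR 0.01. Of 28 neuroblast genes 7 (25.0%) had a Su(H)-only peak, led by *grh*, a neuroblast transcription factor gene (chr2R:17814849-17816070), at 4.93 and 4.07 for Su(H) and 4.70 and 4.37 for Ey. *ham*, which encodes a PR domain zinc finger protein, scored 3.69 and 3.70 at a peak 151 bp from a reproducible Ey peak. *Imp* and *Syp*, which encode RNA-binding proteins whose levels change with neuroblast age, had peaks at 3.73 and 3.31 (*Imp*) and at 3.38 and 3.41 (*Syp*). The peak of the proneural gene *l(1)sc* scored 3.42 and 2.82. Of the temporal factors only *hth* and *opa*, 2 of 17 (11.8%), had a Su(H)-only peak within 1000 bp. That of *hth* scored 3.18 and 3.29 for Su(H) and 4.66 and 4.28 for Ey, and that of *opa* had no call at FDR 0.01. Both genes also had reproducible Ey peaks within 1000 bp. A further Su(H)-only peak, chr2L:3821022-3821858 (3.20 and 3.00, with Ey at 4.19 and 3.71), lay upstream of *slp1* but over 1000 bp from any gene. The neuroblast markers *dpn*, *ase*, *wor*, *mira*, *insc*, *klu* and *SoxN* had no Su(H)-only peak, nor did the 5 neuronal markers *elav*, *nSyb*, *brp*, *Syt1* and *fne*. Of 7 glial markers 2 had one, *repo* (2.87 and 2.96) and *nrv2* (3.72 and 3.03), neither with an Ey peak. These counts leave out shared Su(H) peaks, which lay within 1000 bp of 15 of the 28 neuroblast genes and 3 of the 12 glial genes.

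At genes of cell division, chromatin and guidance, the highest Su(H)-only peak had no Ey peak in any list for 24 of 32 list entries. The count was 10 of 15 in EGFR and Ras signaling, but 0 of 10 in the E(spl) and Bearded families. It was 0 of 7 in neuroblast genes and 0 of 2 in BMP and activin signaling. In ecdysone and nuclear receptor genes it was 3 of 3, in housekeeping genes 5 of 9 and in neuron identity genes 4 of 8. The same share over all genes with a Su(H)-only peak is not given here. Entries are genes, which can share a peak, while 216 of all 361 Su(H)-only peaks (59.8%) is a share of peaks. Some of the 24 entries, as *CycE*, *SAK* and *rsh*, had no Su(H) peak in either replicate list. Of 39 cell cycle genes 9 (23.1%) had a Su(H)-only peak. *stg*, the Cdc25 phosphatase gene (chr3R:29255370-29256112), scored 3.54 and 3.60, 107 bp from a reproducible Ey peak. *endos*, which restrains a mitotic phosphatase, and its neighbour *Ptip* shared a peak at 3.68 and 3.91 with 2 sites (chr3L:14029075-14030624). *ago*, the F-box gene that limits Cyclin E, scored 3.75 and 3.47 with 2 sites. *Rbf*, the retinoblastoma gene, scored 3.56 and 3.51 for Su(H) and 4.16 and 4.23 for Ey. Of 29 annotated chromatin genes 11 (37.9%) had one, and the Polycomb genes *Pc* (3.80 and 3.75), *ph-p* (3.63 and 3.31) and *ph-d* (3.70 and 2.92) had no Ey peak in either replicate at theirs. The genes *ph-p* and *ph-d* each also had a reproducible Ey peak and a shared peak within 1000 bp, while *Pc* had neither. The nearest reproducible Ey peak was 409 bp from the Su(H)-only peak of *ph-p* and 1095 bp from that of *ph-d*. *CoRest*, a corepressor gene, scored 3.83 and 3.66 for Su(H) and 3.91 and 4.01 for Ey. *Dpy-30L1*, a gene of histone methyltransferase complexes, scored 3.69 and 3.71 with no Ey peak. Of 35 guidance and recognition genes 12 (34.3%) had one. Among them, *otk2* (3.43 and 3.23) had an Ey peak of 4.87 there in replicate 1 alone. *robo2*, a receptor gene for Slit (3.30 and 2.75), had Ey peaks of 5.25 and 3.40. The Su(H)-only peaks of *Ret* (3.40 and 3.11) and *Nrg*, the neuroglian gene (3.50 and 2.89), had no Ey peak. For comparison, 9 of 25 housekeeping genes (36.0%) also had a Su(H)-only peak, all without a reproducible Ey peak. Examples are *epsilonCOP*, *RpS28b* (3.81 and 3.72) and *Vha26* (3.00 and 3.17, with Ey at 3.59 in replicate 2 alone). The muscle gene *Mlc2* (3.15 and 2.86) was the only 1 of 40 genes of tissues outside the brain (2.50%).

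In the glial list 3 of 12 genes (25.0%) had a Su(H)-only peak: *repo*, *nrv2* and *pnt*, whose scores are given above. Of 20 ecdysone and nuclear receptor genes 3 (15.0%) had a Su(H)-only peak, with 2.79 and 2.72 at *Hr4* and no call at FDR 0.01 at *Eip75B* and *ecd*. Of 25 Wnt and Hedgehog genes 2 (8.00%) had one, the receptor gene *fz2* (3.66 and 3.37) and the kinase gene *sgg* (3.51 and 3.48, with 2 sites). Some genes had several: *Cph* had 4 Su(H)-only peaks, *Imp*, *CG2841*, *Kdm4B* and *mamo* had 3 each, and *lncRNA:CR44357*, which overlaps *Cph*, had 6.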

How the data were processed

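Per the labels and the study's methods, Bowtie2 and dm6 served for alignment, damidseq_pipeline turned the reads of GATC fragments into normalized log2 ratios against Dam alone, and the authors called peaks on these ratios with find_peaks. The deposited replicate lists hold the peak score of find_peaks at an FDR under 0.01. The deposited reproducible lists hold the score of the IDR program. By the study's methods they contain peaks called at an FDR under 0.1 in both replicates that passed an IDR of 0.05. These IDR scores ran from 542 to 716 over all reproducible Su(H) peaks and from 862 to 1000 over Ey-only peaks. Whether both lists were cut alike was not tested, and the number of Su(H)-only peaks rests on both cuts. No reads were analysed here, so the depth behind a peak is unknown and no counting error is given. Files of overlapping peak pairs were not used, since overlaps were computed from the lists.

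Peaks overlapped when they shared at least 1 bp, and the highest overlapping score stood for a replicate. Genes (18164, without transposons) came from Ensembl release 115, and a gene was near a peak within 1000 bp, the distance of the study's methods. Sequence was read from the RefSeq Release 6 genome, and all peak ends were checked against its GATC sites. Consensus matches were exact, on both strands, within the peak. The gap limits of site pairs (13 to 19 bp) were set around the known spacing of paired sites. The finders of overlaps, distances and sites were tested on simulated data. Tables were handled with pandas 2.3.3 and numpy 2.4.6 under Python 3.11.15. Intervals came from scipy 1.17.1 and plots from matplotlib 3.10.9.

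The peaks and gene lists were chosen with earlier results of these data known. Named are the genes that the study discusses, up to 6 genes per list by mean Su(H) score, the 10 peaks with the highest mean score, those with the most sites, those nearest to the limit of the rule, and the 5 with the highest mean Ey score among those with Ey in both replicates. Of the symbols listed, *sdo*, *BobB*, *BobC* and *calypso* matched no annotated gene. With 2 libraries per group and no read counts, no test across samples was made. Alternatives varied the overlap, the distances, the consensus, the replicate lists and the strictness of the Su(H) calls.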

Additional observations from a re-analysis of the deposited data

How the results depend on the processing

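Of 48 recomputed values, 35 stayed within 1.5 times a count or within the error of a share, and 13 moved. With the FDR 0.01 list of a single replicate in place of the reproducible list of its factor, leaving out each of the 4 fusion libraries in turn, Su(H) peaks without an Ey peak numbered 282 to 715 (715 without Su(H)-Dam replicate 1 and 679 without replicate 2), those without an Ey peak in either replicate list 228 to 357 (357 without Su(H)-Dam replicate 1), genes within 1000 bp 369 to 923 (923 and 835), the share with a start site 28.0 to 33.9% and the share with a consensus site 27.6 to 39.0% (27.6 and 28.9%). The density of sites stayed above that of peaks with Ey, at 0.274 against 0.173 per kb without Su(H)-Dam replicate 1 and 0.272 against 0.171 without replicate 2. With only Su(H) peaks called in both replicates, 116 had no Ey peak. Genes within 5000 bp numbered 901, and 44.9% of peaks had a start site within 500 bp. The share with a site was 55.1% for the 7-base core, 67.3% for the degenerate consensus and, in an alternative added after seeing the data, 21.1% within 500 bp around the centre. Moving replicate starts by 1 base to match the reproducible lists, also added later, gave 217 in place of 216 peaks without Ey. No paired analysis was possible because no result comes from a test. Without read counts, a missing peak cannot be told from a peak just under the threshold.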
